A study of Mus musculus with 272 samples.

Results

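Broad H3K4me3 domains are promoters at which the mark spreads over several kilobases instead of a short stretch around the transcription start site. In the muscle stem cells (MuSCs) studied here, 535 such domains were found among 20512 H3K4me3 peaks of replicate 1. A domain was a replicate 1 peak at least 3000 bp wide that overlapped a replicate 2 peak of at least 3000 bp and lay within 3 kb of a start site of a protein-coding gene. The domains were thus selected on H3K4me3 width in both libraries, and their widths and H3K4me3 enrichments are given as a description without a test. ATAC-seq, H3K27ac and H3K27me3 peaks had no part in the choice. The domains lay at 615 genes, or 2.80% of 21938 protein-coding genes and 4.61% of the 13338 genes with a promoter H3K4me3 peak in both replicates. Of the 13235 promoter H3K4me3 peaks found in both replicates, 4.04% were broad domains, 12108 were narrower than 3000 bp in both, and 592 reached 3000 bp in only 1 replicate.

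MuSCs are the resident stem cells of skeletal muscle, which lie quiescent on the myofibre and divide to repair it. The cells were sorted as GFP+ cells from digested hindlimb muscle of Pax7Cas9 mice, in which Cre expressed from *Pax7* switches on Cas9 together with EGFP. Every library therefore comes from cells of the *Pax7* lineage that carry Cas9, and there is no library without it. Each of 4 features, open chromatin by ATAC-seq and H3K4me3, H3K27ac and H3K27me3 by ChIP-seq, was measured in 2 replicates, giving 8 peak lists out of 272 samples in the series. The labels do not say whether replicates came from separate mice, nor the age of the mice used for these libraries. The spread between replicates may therefore be technical.

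H3K4me3 is written by the SET1 and MLL (Kmt2) methyltransferases at promoters, mainly at CpG-rich ones, and is read by factors that help RNA polymerase to start and to elongate. H3K27ac accompanies active promoters and enhancers, whereas H3K27me3 is the mark of Polycomb repression. In other cell types, the broadest H3K4me3 domains are known to lie on genes that define the identity of the cell.

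The lists gave between 6080 peaks (H3K27me3 replicate 1) and 140937 peaks (ATAC-seq replicate 1), and replicate 2 held fewer peaks than replicate 1 for every feature except H3K27me3. They hold no read numbers, so the depth behind a peak is unknown and no counting interval can be given. The fold enrichment used throughout is the authors' value at the peak summit over the local background. H3K27me3 peaks were listed down to a weaker significance (lowest −log10 q of 0 and 0.0295) than those of the other features (lowest −log10 q between 1.32 and 2.02). Of 13 markers of the labelled cell type, 9 carried a broad domain. None of 49 markers of fibro-adipogenic cells, endothelial cells, blood cells, myofibres and neurons did, and 23 of them had a promoter H3K4me3 peak in both replicates. With so few marked genes, a count of 0 lies near the 4.61% over all such genes.

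To show what lies under the strongest open site of a domain, the bases around the ATAC-seq summit with the highest fold in replicate 1 are given for 8 domains, from the 5 widest domains and the 5 with the highest H3K27ac. The windows of *Arhgef2* and *Cnbp* overlapped annotated untranslated regions and are left out. Sequences are from GRCm38.p6 (mm10), plus strand, and capitals mark matches on either strand to the TATA box (TATAAA), the CCAAT box (CCAAT), the GC box (GGGCGG), the E-box (CANNTG) or the AP-1 motif (TGANTCA), which overlap each other in *Sfpq*. The 4 windows from the widest domains are:
*Gnas*, chr2:174330453-174330573: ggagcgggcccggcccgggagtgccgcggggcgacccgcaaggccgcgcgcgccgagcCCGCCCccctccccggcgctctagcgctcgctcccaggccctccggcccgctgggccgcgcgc
*Irs2*, chr8:11008877-11008997: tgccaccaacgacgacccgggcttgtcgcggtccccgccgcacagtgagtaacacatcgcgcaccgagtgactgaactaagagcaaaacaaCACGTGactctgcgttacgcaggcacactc
*2010111I01Rik*, chr13:63243684-63243804: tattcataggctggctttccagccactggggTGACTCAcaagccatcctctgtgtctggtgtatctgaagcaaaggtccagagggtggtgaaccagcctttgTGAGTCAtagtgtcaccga
*Tgif1*, chr17:70852977-70853097: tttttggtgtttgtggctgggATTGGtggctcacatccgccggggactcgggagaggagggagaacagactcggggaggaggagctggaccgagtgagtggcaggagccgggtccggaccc

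The 4 windows from the domains with the highest H3K27ac are:
*Sfpq*, chr4:127021114-127021234: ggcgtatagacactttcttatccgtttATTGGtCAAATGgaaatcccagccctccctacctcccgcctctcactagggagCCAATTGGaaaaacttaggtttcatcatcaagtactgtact
*Dnajb4*/*Fubp1*, chr3:152210275-152210395: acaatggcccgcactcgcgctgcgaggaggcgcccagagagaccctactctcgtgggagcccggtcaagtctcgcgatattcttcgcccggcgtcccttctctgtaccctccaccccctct
*Arrdc3*, chr13:80885554-80885674: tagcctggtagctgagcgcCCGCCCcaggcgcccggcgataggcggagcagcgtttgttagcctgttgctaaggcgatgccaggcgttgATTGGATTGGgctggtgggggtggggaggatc
*Kmt2e*, chr5:23433357-23433477: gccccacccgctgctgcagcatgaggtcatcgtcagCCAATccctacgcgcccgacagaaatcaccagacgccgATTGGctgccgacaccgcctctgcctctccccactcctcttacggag

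The windows differed in composition. The *Gnas* window, in an intron 226 bp downstream of a start site, held 22 CpG dinucleotides and 86.8% G and C. It was not the strongest open site in replicate 2, where the overlapping peak had a fold of 2.45 and the highest was 4.97. The *2010111I01Rik* window, in an intron 3636 bp downstream of the start site, held 1 CpG and 2 AP-1 matches. The *Irs2* window lay 479 bp upstream of the start site, in an intron of the non-coding gene *9530052E02Rik*, and held 1 E-box. Those of *Tgif1* and *Arrdc3* lay in introns of their genes, the *Sfpq* window lay between genes, that of *Dnajb4*/*Fubp1* overlapped an exon of *Dnajb4*, and that of *Kmt2e* overlapped an exon of the non-coding gene *5031425E22Rik*. The *Sfpq* window held 3 CCAAT matches, and those of *Arrdc3* and *Kmt2e* held 2 each.

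Over all 535 domains, the same window around the strongest ATAC-seq summit held an AP-1 match in 7.29% and 8.41% of domains with the summits of replicates 1 and 2. In narrower promoter peaks the share was 3.17% and 3.29%. The CCAAT box was in 24.7% and 25.4% of domain windows and in 20.6% and 21.7% of the others. The GC box (43.9% and 45.8% against 45.8% and 46.8%) and the E-box (30.1% and 30.5% against 29.2% and 29.8%) were held by nearly equal shares of both, and TATAAA by few (2.43% and 2.24% against 1.14% and 1.24%). In the 250 bp before the start site, the order was different. There CCAAT was found in 25.4% of domains, 31.5% of narrower peaks and 36% of all protein-coding genes, the GC box in 63.2%, 64.4% and 39%, the E-box in 48.2%, 54.2% and 64.1%, TATAAA in 7.48%, 4.34% and 11.5%, and the AP-1 motif in 3.36%, 3.66% and 6.05%. These are matches of letters and no evidence of binding.

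Domain widths ran from 3026 to 16009 bp in replicate 1, with a median of 4242 bp. In replicate 2 they ran from 3000 to 8560 bp, with a median of 3531 bp. The replicate 1 peak was the wider one in 516 of the 535 domains (96.4%), by a median ratio of 1.13, and the edges of a domain differed between replicates by a median of 172 bp on the left and 185 bp on the right. The median fold enrichment of H3K4me3 was 30.5 and 22, with lowest values of 10.5 and 6.04. Only 58 domains (10.8%) reached 5000 bp in both replicates.

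**Figure D1:**
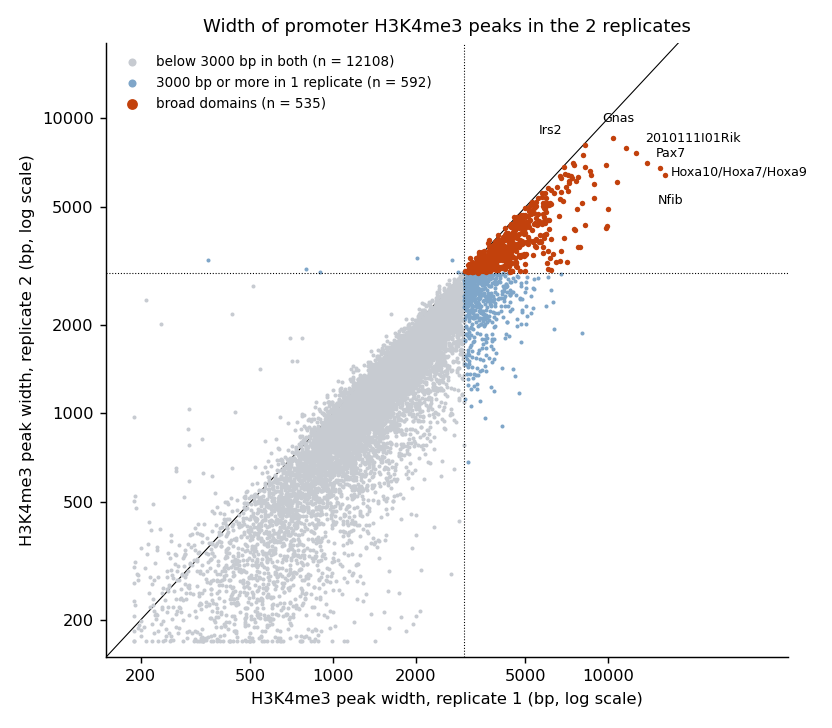
Each point is a promoter H3K4me3 peak found in both replicates, with its width in replicate 1 (x axis) and replicate 2 (y axis), both in bp on log scales. The 535 broad domains (orange) reach 3000 bp (dotted lines) in both, and most points lie below the line of equal width, as replicate 1 peaks were wider.

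Ranked by the narrower of the 2 replicates, the widest domain was that of *Gnas* (chr2:174326204-174336615), which encodes the stimulatory G protein α subunit and is an imprinted gene with several start sites. It measured 10412 and 8560 bp. Next came *Irs2* (8260 and 8125 bp), which encodes an insulin receptor substrate, *Arhgef2* (11565 and 7926 bp), a microtubule-bound activator of RhoA, *2010111I01Rik* (12602 and 7617 bp) and *Tgif1* (8092 and 7528 bp), a homeodomain repressor of TGF-β responses. *Pax7*, the transcription factor that defines MuSCs, had the next widest domain (chr4:139820823-139834664, 13842 and 7067 bp). The 10 widest also included *Brd2*/*H2-DMa* (7420 and 7022 bp), where *Brd2* encodes a reader of acetylated histones, the kinase gene *Sgk1* (7517 and 6940 bp), *Irs1* (9829 and 6938 bp) and the corepressor gene *Irf2bp2* (8194 and 6820 bp). The 2 insulin receptor substrate genes were thus both among the 10.

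The replicates ordered the widest domains differently. In replicate 1 alone, the widest was *Nfib*, which encodes a nuclear factor I protein, with 16009 bp against 6422 bp in replicate 2, followed by the *Hoxa7*/*Hoxa9*/*Hoxa10* region with 15386 and 6764 bp. At *Pax7*, replicate 2 split the same stretch into several peaks, which the map of 6 domains shows. At the width limit, the members just inside were *Ppp3ca*, a catalytic subunit of calcineurin (3370 and 3000 bp), and *Phf13* (3237 and 3001 bp). Just outside were *Fndc3b* (1 bp short in replicate 1, 3007 bp in replicate 2) and *Cnn3* (4324 and 2998 bp). H3K27ac covered between 54.9% and 88.9% of each of these 4 peaks.

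Most domains were single-gene promoters. In 463 of 535 (86.5%), start sites of exactly 1 protein-coding gene lay within 3 kb, and 72 (13.5%) had more than 1, against 14.9% of all promoter peaks found in both replicates. The domain itself contained a protein-coding start site in 531 cases. Only 3 genes had start sites at more than 1 domain, among them *Tcf4*, which encodes an E-protein partner of myogenic factors, with domains of 6299 and 3469 bp and of 6007 and 3234 bp. A start site of a non-coding RNA gene lay inside 127 domains (23.7%), compared with 10.5% of all promoter peaks found in both replicates. Per length, however, domains held no more of them, with 5.45 such genes per 100 kb against 6.37 in narrower peaks. The domain covered the whole gene at 41 domains (7.66%), against 0.861% of all promoter peaks found in both replicates. The width by which domains were selected gives more room to cover a gene. The 41 included the domains of the intron-poor genes *Jun*, *Ier2* and *Sox4* and of *Myod1*, *Myf5* and *Fos*.

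From the start site nearest its centre, a domain extended a median of 2653 bp downstream and 1641 bp upstream, so that a median of 59.8% of it lay downstream. In narrower peaks this share was 58.9%. Choosing the start site nearest the centre pulls the share towards the middle, and with the annotated 5′ end of each gene it rose to 76.9%. The H3K4me3 plateau ran well into the gene: 1 kb downstream, 98.3% and 94.6% of domains were covered, and 2 kb downstream 75.7% and 65.2%. At 2 kb upstream the coverage was 35.1% and 28%.

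The domains were slightly poorer in CpG than narrower peaks, with a median observed/expected ratio of 0.654 against 0.671 and a GC content of 55.2% against 57.1%. This order depended on where the limit was set, as the ratio rose from 0.565 in the narrowest peaks (under 500 bp) to 0.706 from 1500 to under 2000 bp and was 0.703 from 2000 to under 3000 bp. With a width minimum of 2000 bp, the difference therefore changed sign to 0.0292. Across chromosomes, 2.21% (chromosome 9) to 6.09% (chromosome 18) of the promoter peaks of each autosome were broad domains, around the 4.04% of all. On the X chromosome 4 of 440 were (0.909%).

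Nearly every domain held H3K27ac. An H3K27ac peak lay inside 97.4% of domains in H3K27ac replicate 1 and 95.9% in replicate 2, or 96.6% ± 1.06 (SD, n = 2 libraries). Narrower promoter peaks had one in 73.5% and 68.3%. In both replicates together 512 of 535 domains (95.7%) held one, compared with 69.9% of all promoter peaks found in both replicates. A wider region has more room for a peak, so the comparison was repeated in a fixed window of 500 bp either side of the start site. There, 93.5% and 90.7% of domains and 73.2% and 68.2% of narrower peaks had an H3K27ac peak. Domains were higher by 20.2 and 22.4 percentage points, a mean of 21.3 ± 1.56 (SD, n = 2 libraries). In both replicates, 482 domains (90.1%) had a peak in this window, against 69.5% of all promoter peaks found in both replicates.

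Acetylation was also stronger and wider in the domains. H3K27ac peaks covered a median of 70.1% and 59.9% of the bases of a domain, and 55.9% and 43.6% of a narrower peak, a difference of 15.2 ± 1.52 percentage points (SD, n = 2 libraries). Against narrower peaks of at least 1000 bp, the difference was 8.88 percentage points. Promoter peaks of 2000 to under 3000 bp had a median coverage of 69.1% and 61.6%, close to that of domains. The strongest H3K27ac peak inside had a median fold enrichment of 19.9 and 15.9 in domains and of 12.6 and 11.0 in narrower peaks, a difference of 6.06 ± 1.73. Each of these differences had the same sign in both libraries and was larger than the spread between them. An exact two-sided sign-flip permutation test over 2 libraries gave p = 0.5 for each, the smallest value this design allows, so none could pass 0.05. The widest H3K27ac peak touching a domain had a median width of 2630 and 2173 bp, and 50.8% and 50.7% of domains held 2 or more H3K27ac peaks, against 7.37% and 8.54% of narrower peaks. Per kb of H3K4me3, however, domains held fewer H3K27ac peaks, 0.382 and 0.392 against 0.537 and 0.509.

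The share with H3K27ac rose with H3K4me3 width among the narrower peaks. Within 500 bp of the start site, H3K27ac was listed at 27.1% and 20.7% of promoters with less than 500 bp of H3K4me3, at 83.9% and 79.8% of those with 1000 to under 1500 bp, and at 95.0% and 92.4% of those with 2000 to under 3000 bp. The domains did not uniformly exceed this last class. Those of 3000 to under 4000 bp had 92.9% and 88.8%, those of 4000 to under 5000 bp had 95.5% and 96.4%, and those of 5000 bp or more had 93.1% and 91.4%. The median H3K27ac fold near the start site likewise rose from 8.04 and 8.09 to 20.0 and 16.6 at 2000 to under 3000 bp. It was 19.5 and 15.4 in domains under 4000 bp and 21.5 and 17.3 in those of 5000 bp or more. Compared only with narrower peaks of at least 1000 bp, the difference in the share with H3K27ac near the start site was 10.6 percentage points.

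**Figure D2:**
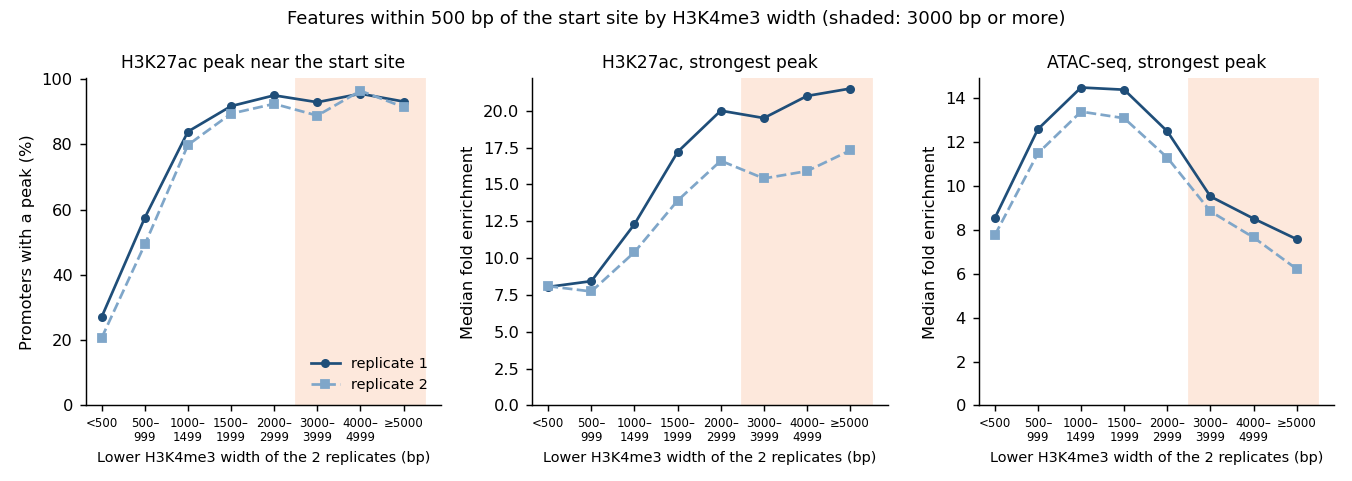
The x axis gives classes of H3K4me3 width (the lower of the 2 replicates, in bp; shaded classes are broad domains), and points are the values of replicates 1 and 2 within 500 bp of the start site. From left to right, the share of promoters with an H3K27ac peak and the median H3K27ac fold level off at 2000 bp, while the median ATAC-seq fold peaks at 1000 to under 1500 bp (14.5 and 13.4) and falls to 7.58 and 6.22.

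Open chromatin differed from H3K27ac. Every one of the 535 domains held an ATAC-seq peak in both replicates, where 95.6% of all promoter peaks found in both replicates did, and the median number was 4 and 3 peaks in a domain against 2 and 1 in a narrower peak. The fold enrichment over the local background was lower, which does not measure how much sequence was open. The strongest ATAC-seq peak had a median fold enrichment of 10.7 and 9.72 in domains and of 13.5 and 12.3 in narrower peaks, a difference of −2.70 ± 0.111 (SD, n = 2 libraries). Without replicate 2 of every feature, this difference was −1.76, and with a width minimum of 2000 bp it was −1.05. Within 500 bp of the start site it was 9.09 and 8.38 against 13.5 and 12.3, a difference of −4.16 ± 0.284. Per kb of H3K4me3, domains held 0.923 and 0.745 ATAC-seq peaks and narrower peaks 1.32 and 1.05, and ATAC-seq peaks covered 26.2% and 26.8% of the bases of a domain and 40.5% and 42.1% of a narrower peak. The number per kb and the share of bases are divided by the H3K4me3 width, on which domains were selected. A wider H3K4me3 peak can lower both by itself, so they do not show less open chromatin. All 4 differences had the same sign in both libraries (exact sign-flip permutation test, p = 0.5 for each, the smallest possible).

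The fall went on among the domains. The median ATAC-seq fold near the start site was 12.5 and 11.3 in promoter peaks of 2000 to under 3000 bp, 9.53 and 8.85 in domains of 3000 to under 4000 bp, 8.52 and 7.66 in those of 4000 to under 5000 bp, and 7.58 and 6.22 in those of 5000 bp or more. The position of the open sites was counted only inside the H3K4me3 peak, so that the width by which domains were selected gives more room away from the start site. The summit of the strongest ATAC-seq peak lay over 500 bp from every protein-coding start site in 127 (23.7%) and 145 (27.1%) of the 535 domains, and in 9.37% and 9.11% of narrower peaks with an ATAC-seq peak. Of all ATAC-seq peaks in domains, 42.6% and 44.0% lay that far away, compared with 18% and 17.9% in narrower peaks. Position 0 itself, the start site nearest the centre, was covered by ATAC-seq in 62.6% and 62.4% of domains and in 80.9% and 80.8% of narrower peaks, while 1 kb upstream the order was reversed, with 28.8% and 31.2% against 4.24% and 4.32%. The start site nearest the centre can lie inside the gene. These shares and the ATAC-seq fold within 500 bp may therefore depend on that choice, which was not tested.

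**Figure D3:**
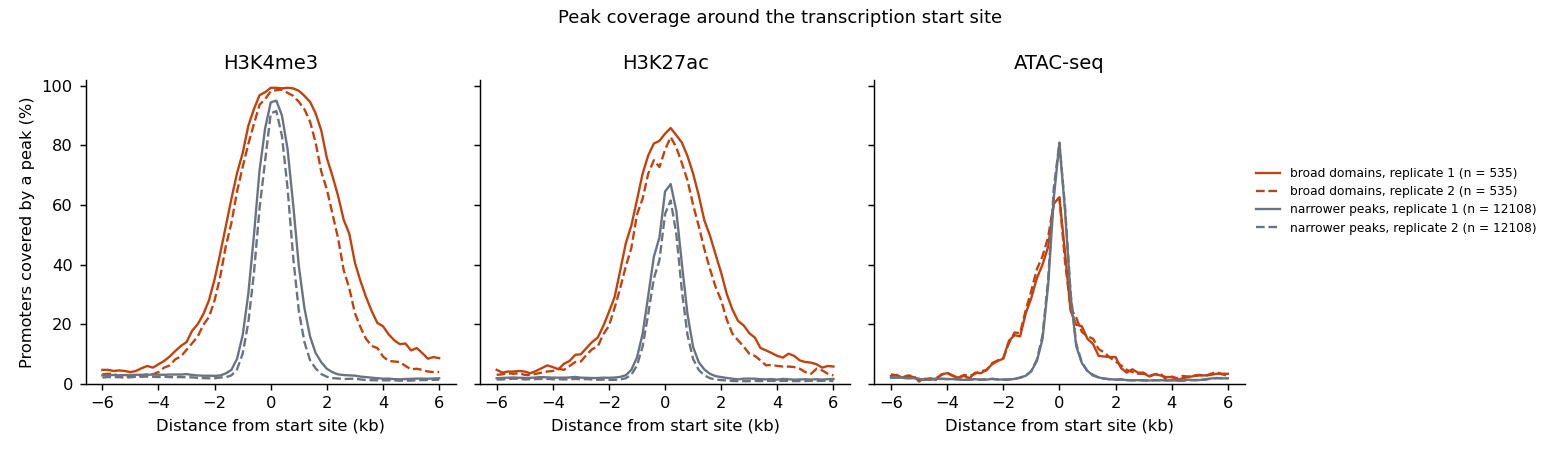
The percentage of promoters covered by a peak (y axis) is plotted against distance from the transcription start site in kb (x axis, positive downstream) for 535 broad domains (orange) and 12108 narrower peaks (grey), with replicate 1 solid and replicate 2 dashed. H3K4me3 and H3K27ac reach farther on both sides in domains, and ATAC-seq is lower at the start site (62.6% and 62.4% against 80.9% and 80.8%) and higher 1 kb upstream. The start site is the one nearest the centre of the H3K4me3 peak, which can lie inside the gene.

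The region around the domains was also richer in distal H3K27ac than that around narrower peaks. H3K27ac peaks found in both replicates and more than 3 kb from any annotated start site were counted within 50 kb of each domain. At least 1 was present near 44.9% and 44.7% of domains and near 16.9% and 17.1% of narrower peaks. For the 592 peaks that reached 3000 bp in only 1 replicate, the share was 34.8% and 35.1% and the mean number 0.713 and 0.799. Distal H3K27ac was thus not particular to the domains. The mean number in domains was 1.05 and 1.15, against 0.276 and 0.303 in narrower peaks, higher by 0.778 and 0.85. As only peaks found in both replicates were counted, the 2 values are not independent and no test is given. The largest number, 16 and 17, lay around the domain of *Sept9*, which encodes a septin of the cytoskeleton.

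By width class, the median H3K27ac fold near the start site was 19.5 and 15.4 in domains under 4000 bp. In domains of 5000 bp or more it was 21.5 and 17.3. None of the 5 domains with the strongest acetylation was among the 10 widest, but lists this short out of 535 domains would seldom overlap. By the lower of the 2 replicates, the first was *Cnbp* (chr6:87848266-87851829), a nucleic acid-binding protein gene in which a repeat expansion causes a form of myotonic dystrophy, with an H3K27ac fold of 57.9 and 48.5 and widths of 3564 and 3232 bp. The RNA-binding protein gene *Sfpq* followed (chr4:127020698-127025427, fold 49.1 and 47.1), then *Dnajb4*/*Fubp1* (chr3:152209111-152212872, 58.6 and 44.5), the arrestin gene *Arrdc3* (chr13:80882679-80887156, 54.0 and 44.1) and *Kmt2e* (chr5:23430960-23436757, 63.2 and 43.8), a relative of the MLL genes. At *Arrdc3* a single H3K27ac peak covered 100% and 91.6% of the domain, whereas at *Sfpq* it covered 36.1% and 34.8%. A high fold and a wide coverage were thus not the same property. *Runx1*, a transcription factor gene, had the highest fold of any domain in replicate 1 (78.2) but 16.9 in replicate 2.

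H3K27ac covered at least 90% of a domain in both replicates at 16 domains (2.99%). *Pax7* was the widest of them, with 1 H3K27ac peak over 98.3% and 96.8% of its domain and a modest fold of 15 and 14.7. *Per1* (100% and 96.2%) and *Bcl6* (92.6% and 92.5%) were others. Covering at least 90% was about as frequent in narrower peaks (2.21%).

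The highest ATAC-seq folds, by the lower of the 2 replicates, were those of *Hoxc10*/*Hoxc5* (30.2 and 31.0), *Klhl28*/*Togaram1* (25 and 25.2), *Hmgb2* (28.6 and 24.8), which encodes a DNA-bending chromatin protein, *Serbp1* (27 and 24.5) and the chromatin remodeller gene *Chd2* (25.4 and 20.9). The lowest fold in replicate 1 was that of *Plekhg2*/*Zfp36* (4.11, and 3.91 in replicate 2), where *Zfp36* encodes an mRNA decay factor, and the lowest in replicate 2 was that of the kinase gene *Sik1* (8.90 in replicate 1 and 3.25). The widest domain, that of *Gnas*, had 8 and 6 ATAC-seq peaks with a highest fold of 6.33 and 4.97. The number of ATAC-seq peaks went up to 14 in replicate 1, at the *Hoxa7*/*Hoxa9*/*Hoxa10* domain, and 104 domains (19.4%) held at least 5 in both replicates. A wider region has more room for peaks, and no such share is given for narrower peaks.

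Only 13 domains (2.43%) lacked an H3K27ac peak in both replicates, compared with 24% of all promoter peaks found in both replicates. Of the 592 peaks that reached 3000 bp in only 1 replicate, 6.25% lacked one, and a wider region has more room for a peak. The widest of the 13 domains was *Pcdh10* (chr3:45376004-45381535, 5532 and 5368 bp), which encodes a protocadherin. *Phf21b* (3741 and 3575 bp), the chromatin architecture gene *Hmga2* (4178 and 3516 bp), the natriuretic peptide clearance receptor gene *Npr3* (3621 and 3440 bp) and *Sfmbt2* (3455 and 3418 bp), which encodes a Polycomb-associated protein, came next. The remaining 8 were *Kif26b*, *Wnt5a*, *Bcl11a*, *Tmem178b*, *Pou3f2*, *Dhrs3*, *Dach1* and *Kcnk13*, named after their values had been seen. Each had ATAC-seq peaks. At the 5 widest the H3K4me3 fold was 11.7 to 19.4 in replicate 1 and 8.71 to 17.4 in replicate 2, below the medians of all domains (30.5 and 22).

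H3K27me3 was rare. A peak lay in 27 domains in each replicate (5.05% in both), against 5.62% and 7.48% of narrower peaks, so that the difference of −1.50 ± 1.32 percentage points was about as large as the spread between libraries (SD, n = 2, exact sign-flip permutation test, p = 0.5). In both replicates 19 domains (3.55%) held one, and 4.63% of all promoter peaks found in both replicates did. With only H3K27me3 peaks of q up to 0.05, 9 of the 19 were left. Of the 13 domains without H3K27ac, 6 (*Pcdh10*, *Hmga2*, *Sfmbt2*, *Kif26b*, *Bcl11a* and *Pou3f2*) were among the 19.

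H3K27me3 and H3K27ac could lie in the same domain. In 12 of the 19 an H3K27ac peak was present in both replicates as well, a lower share than the 95.7% of all domains. Among narrower peaks, 67.7% had H3K27ac in both replicates, but 521 of the 560 narrower peaks with H3K27me3 in both replicates (93.0%) had no H3K27ac in either. Narrower peaks had median widths of 1475 and 1185 bp, against 4242 and 3531 bp in domains. Domains, which were selected on width, thus had more room for both marks. Whether the contrast holds at equal width was not tested. The count of 12 was not repeated on the 9 domains left with the stricter H3K27me3 limit. The widest of the 19 after *Pcdh10* were *Efna5*, an ephrin ligand gene, *Egr2*, *Hoxc10*/*Hoxc5* and the homeobox gene *Irx5*. *Irx5* had the largest share under H3K27me3 of these, 43.1% and 56.4%, beside 25.3% and 13.6% under H3K27ac. Of its 2 H3K27ac peaks, the upstream one met no H3K27me3 peak and the downstream one lay inside an H3K27me3 peak in both replicates. *Pou3f2* (45.5% and 51.2%) was similar but without H3K27ac. At *Egr2*, H3K27ac covered 34.5% and 39.8% and H3K27me3 8.18% and 9.76%. Whether 2 marks in 1 domain lay on the same cells or alleles was not tested.

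**Figure D4:**
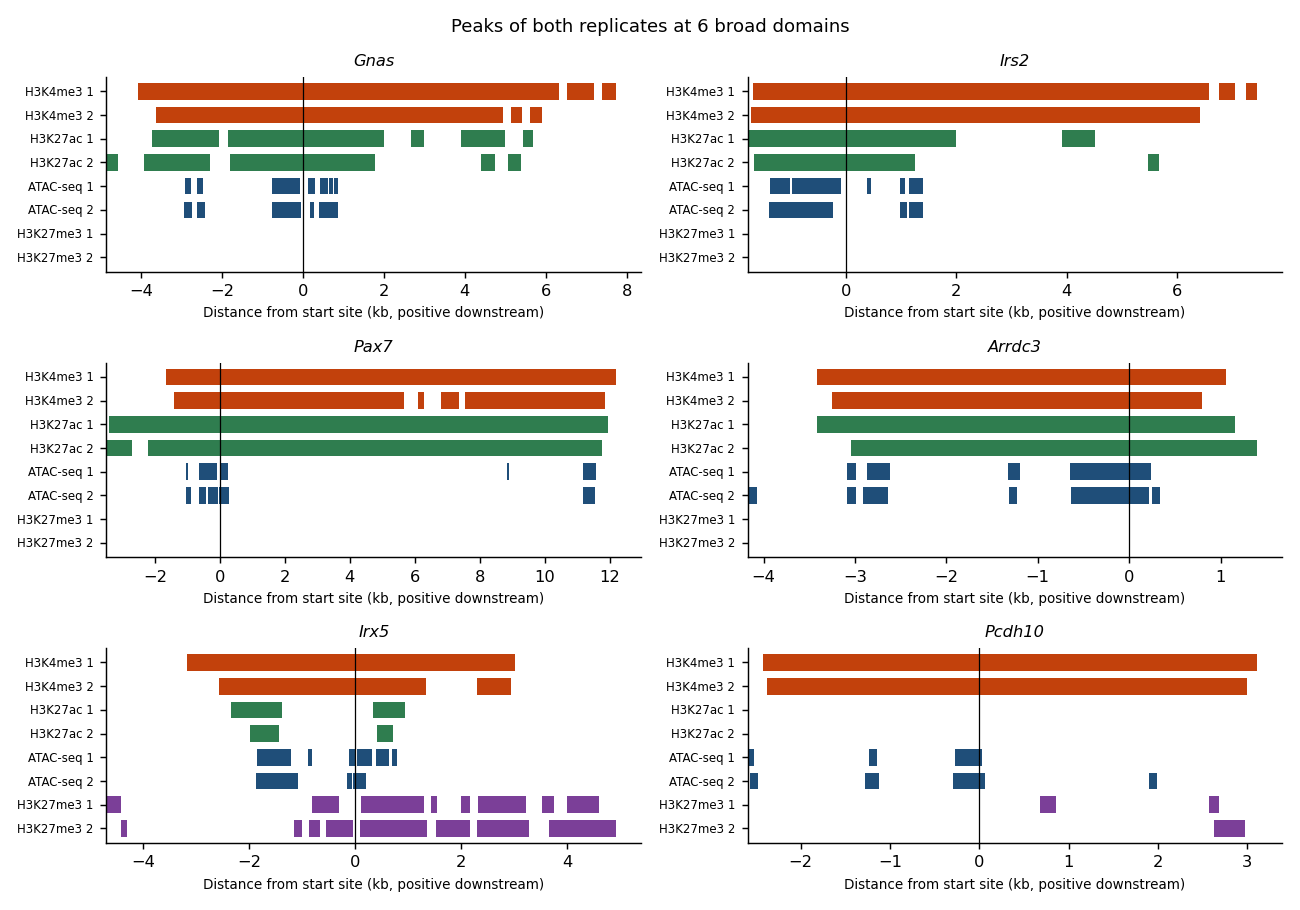
Horizontal bars are peaks of each library (rows, replicates 1 and 2) plotted by distance from the start site in kb (x axis) for *Gnas*, *Irs2*, *Pax7*, *Arrdc3*, *Irx5* and *Pcdh10*. H3K27ac spans most of the *Pax7* and *Arrdc3* domains, is absent from *Pcdh10*, and in *Irx5* lies partly inside H3K27me3.

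The genes at the domains were described with gene lists of known function. These lists were drawn up with earlier results of these data known, so the counts are a description read against the 4.61% of marked genes with a domain. Among the 13 MuSC markers, all with a promoter H3K4me3 peak, 9 had a domain. After *Pax7*, the widest were *Msc* (6215 and 5703 bp), which encodes the repressor MyoR, and *Spry1* (6842 and 5256 bp), an inhibitor of receptor tyrosine kinase signalling needed for quiescence. *Heyl* (4663 and 3720 bp), *Myod1* (4179 and 3697 bp), *Sdc4* (7787 and 3656 bp), *Itga7* (5811 and 3496 bp), *Myf5* (5004 and 3462 bp) and *Vcam1* (4391 and 3014 bp) followed. The median H3K27ac fold in these 9 was 13.4 and 10.7, below the 19.9 and 15.9 of all domains. The other 4 markers had narrower peaks, of 2388 and 2025 bp at *Cdh15*, 2530 and 1350 bp at *Calcr*, 2580 and 1388 bp at *Chrdl2* and 2041 and 1548 bp at *Notch3*.

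Of 25 myogenic and premyogenic transcription factors, 12 had a domain. Besides those above they included the premyogenic factors *Lbx1* (8596 and 6610 bp), *Eya1* (4744 and 4236 bp), *Six4* (3394 and 3533 bp) and *Eya4* (3204 and 3008 bp), and *Mef2d* and *Tcf4*. Their 13 domains all had H3K27ac in both replicates and none had H3K27me3 in both, near the 95.7% and 3.55% of all domains. Genes of this list without a domain included late differentiation factors, but also *Eya2* (535 and 204 bp), *Pitx1* (445 and 432 bp) and *Meox2* (363 and 337 bp). *Myog*, which drives fusion into myofibres, had a peak of 978 and 215 bp with an H3K4me3 fold of 3.95 and 3.81, and *Myf6* one of 2665 and 2149 bp with a fold of 9.17 and 9.12. *Pax3*, the relative of *Pax7* active in the embryo, had 1352 and 1465 bp, and *Meox1* and *Tcf21* had no promoter peak in both replicates.

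Immediate early genes, which are switched on within minutes of a stimulus, had a domain at 19 of 25 genes, the highest share among the lists not chosen after values were seen. The widest domain was that of *Egr1* (6894 and 6803 bp), followed by *Myc* (6682 and 6381 bp), *Jun* (5839 and 5139 bp), *Zfp36*, *Fos* (5824 and 4970 bp) and *Cebpb*. *Egr2*, *Dusp1*, *Klf4*, *Ier2*, *Btg2*, *Fosb*, *Socs3*, *Junb*, *Nr4a2*, *Cebpd*, *Atf3*, *Klf6* and *Ier5* made up the rest. All 19 had H3K27ac in both replicates, with a median fold of 20.7 and 17.3, while 3 of them (*Egr2*, *Nr4a2* and *Atf3*) had H3K27me3 in both. Over all domains, H3K27ac was present in both replicates in 95.7% and H3K27me3 in 3.55%. The 6 without a domain were close to the limit, as *Jund*, *Egr3*, *Ier3*, *Klf2* and *Nr4a1* reached 3000 bp in replicate 1 and 2429 to 2857 bp in replicate 2. *Maff* had 2507 and 2262 bp.

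Signalling genes were also common. In the Notch pathway, which keeps MuSCs quiescent, 5 of 14 genes had a domain. These were the ligand genes *Dll1* (5540 and 4390 bp) and *Jag1* (4480 and 4349 bp), the nuclear effector *Rbpj* (3987 and 3304 bp) and the target genes *Hey1* (5353 and 4785 bp) and *Heyl*. The receptor genes *Notch1* (3374 and 2795 bp) and *Notch2* (3512 and 2865 bp) missed it in replicate 2. Of the TGF-β and BMP feedback and target genes, 8 of 16 had one, namely the repressors *Tgif1* and *Ski* (5460 and 4596 bp), the inhibitory *Smad7* (6060 and 4509 bp) and *Smad6* (3364 and 3110 bp), the effector *Smad3* (4766 and 4407 bp), the ligand gene *Bmp4* (5869 and 5583 bp), the receptor gene *Bmpr2* (3460 and 3416 bp) and *Id2* (3113 and 3037 bp). Of the FoxO and insulin signalling genes 6 of 11 had one, among them *Irs1*, *Irs2*, *Igf1r*, *Foxo1* and *Foxo3*. Their median H3K27ac fold was 28.8 and 17.5.

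The Hippo pathway (3 of 13, *Wwtr1*, *Ccn1* and *Vgll4*) and the cell cycle inhibitors and D cyclins (4 of 13, *Cdkn1b*, *Cdkn2c*, *Ccnd1* and *Ccnd3*) had fewer. Of 18 clock genes, 3 had a domain, *Per1* (5290 and 5205 bp), *Nfil3* (5129 and 4858 bp) and *Bhlhe40* (4140 and 3661 bp). The core activators *Arntl* (2858 and 1426 bp) and *Clock* (2560 and 2267 bp) did not, with H3K4me3 folds of 37.6 and 29.9 and of 39.8 and 39.9. These folds were above the medians of all domains.

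**Figure D5:**
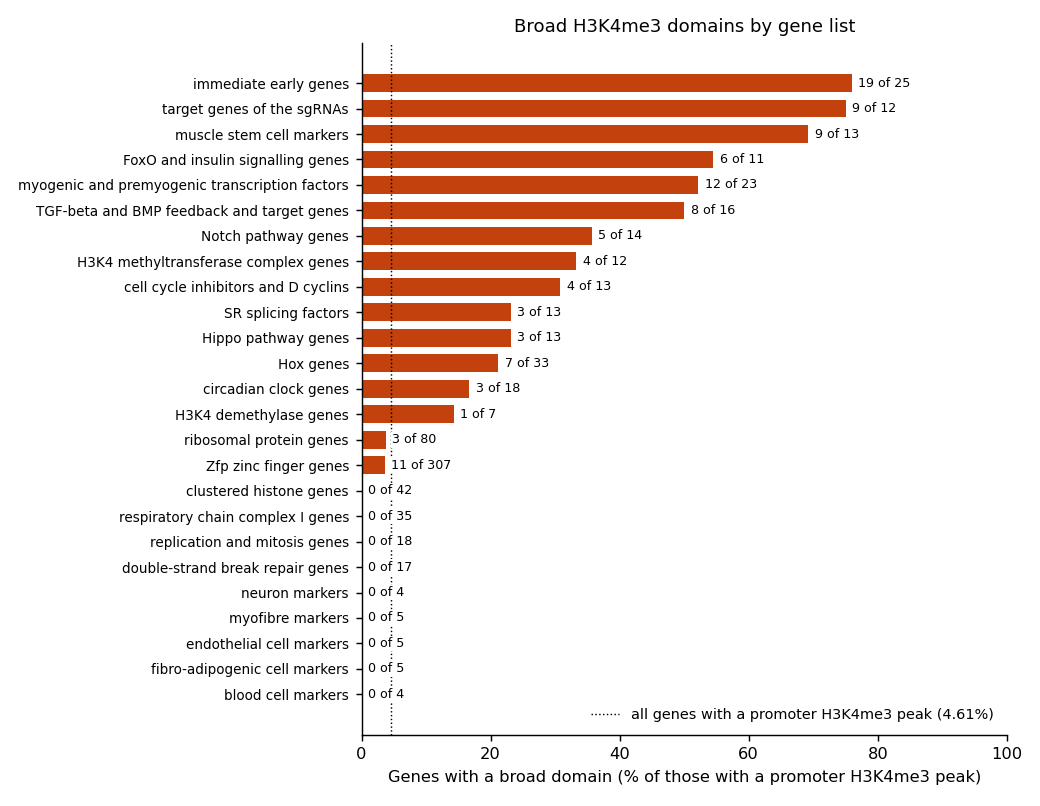
Bars give, for the gene lists not chosen after values were seen and with at least 1 marked gene, the percentage of genes with a promoter H3K4me3 peak in both replicates that carry a broad domain, with the counts beside them, and the dotted line marks 4.61%, the share over all such genes. Immediate early genes (19 of 25), the listed targets of the sgRNAs (9 of 12, without *Atf4* and *Ent*) and MuSC markers (9 of 13) have the highest shares among these lists, and 9 of the lists have none.

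Of the 12 genes that the study targeted with sgRNAs and that are listed here, which leave out *Atf4* and *Ent*, 9 had a domain. *Bcl6* (8625 and 6405 bp), *Runx1* (7759 and 6297 bp) and *Pknox2* (3534 and 3342 bp) join *Pax7*, *Myod1*, *Myc*, *Fos*, *Fosb* and *Junb*. *Rora* (3436 and 2811 bp), *Ctcf* (2874 and 2651 bp) and *Sugt1* (1922 and 1539 bp) had narrower peaks in at least 1 replicate. Since several of these genes are also in the lists of myogenic factors and immediate early genes, the counts are not separate observations. Whether a cut inside a domain is repaired differently was not analysed here.

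Chromatin genes themselves were among the members. Of 12 genes for H3K4 methyltransferase subunits, 4 had a domain, *Kmt2a*, *Kmt2c*, *Kmt2d* and *Setd1b* (9973 and 4914 bp), each encoding a catalytic subunit. Of 7 histone demethylase genes of the Kdm1, Kdm2 and Kdm5 families, 1 had a domain, *Kdm2a* (3522 and 3552 bp). The figure of gene lists labels these as H3K4 demethylase genes, a name that does not apply to *Kdm2a*. The core methyltransferase subunits *Wdr5*, *Rbbp5*, *Ash2l* and *Dpy30* had none. *Srsf1*, *Srsf2* and *Srsf3* were the members among 13 SR splicing factor genes. Of 20 heterogeneous nuclear ribonucleoprotein genes, a list chosen after the values were seen, 11 had a domain, with a median H3K27ac fold of 31.4 and 25.7 against 19.9 and 15.9 over all domains. The other families counted after their values were seen were *Sox* (6 of 19, *Sox4*, *Sox6*, *Sox8*, *Sox9*, *Sox11* and *Sox12*), *Klf* (6 of 17), *Dusp* phosphatases (4 of 24) and the TGF-β ligand genes (*Tgfb1*, *Tgfb2* and *Tgfb3*, 3 of 3, with 3287 to 3872 bp in replicate 1 and 3040 to 3508 bp in replicate 2).

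The Hox genes with a domain came from 2 clusters. *Hoxa7*, *Hoxa9* and *Hoxa10* shared 1 domain, and *Hoxc5*, *Hoxc6*, *Hoxc10* and *Hoxc11* lay at 3 others. They were 7 of 39 Hox genes, and none was from the Hoxb or Hoxd clusters. At these 4 domains the median H3K27ac fold was 8.70 and 7.72, and 2 of the 4 (*Hoxc10*/*Hoxc5* and *Hoxc11*) had H3K27me3 in both replicates.

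Large gene families and housekeeping groups had few or no domains. Ribosomal protein genes had 3 of 83, *Rpl3*, *Rpl7* and *Rpl23a*, and the *Zfp* zinc finger genes 11 of 365, or 3.75% and 3.58% of the marked ones. These are near the 4.61% of all marked genes. None of 36 respiratory chain complex I genes, 18 replication and mitosis genes, 17 double-strand break repair genes and 67 clustered histone genes had a domain. Among these, 35, 18, 17 and 42 had a promoter H3K4me3 peak in both replicates. In lists of this size, a count of 0 lies near the 4.61% of all marked genes. The 1092 olfactory receptor genes had no promoter H3K4me3 peak in both replicates.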

How the data were processed

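ATAC-seq and ChIP-seq for H3K4me3, H3K27ac and H3K27me3 were made from sorted MuSCs, 2 replicates each, with about 500000 cells per ChIP per the labels. According to the methods, the authors trimmed reads (Trim Galore 0.6.10), aligned them to mm10 (BWA 0.7.17-r1188), filtered them (SAMtools 1.5, Sambamba, and bedtools for blacklisted regions), shifted ATAC-seq reads for the Tn5 offset (deepTools 3.5.5) and called peaks per library (MACS2 2.2.6). Each deposited peak has a fold enrichment at its summit (a ratio) and −log10 p and −log10 q values as the authors' peak caller gave them. The deposited integer score was not used. The lists hold no read counts, so depth is unknown, and peak width and number can vary with it. Only the 8 peak lists of the 272 samples were used.

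Peaks on assembled chromosomes were compared with start sites of protein-coding genes in GENCODE M21 (GRCm38.p6, which is mm10). A feature peak was inside a domain if at least 1 bp overlapped. Promoter H3K4me3 peaks were matched between replicates by overlap, taking the widest replicate 2 peak. ATAC-seq, H3K27ac and H3K27me3 replicates were summarised separately over domains and over narrower peaks, and the differences were compared by an exact two-sided sign-flip permutation test over the 2 libraries, whose smallest p is 0.5. The code was tested on simulated data, where 100% of 779 regions were placed in their planted class. Python 3.11.15 with numpy 2.4.6, pandas 2.3.3, pysam 0.24.0, scipy 1.17.1 and matplotlib 3.10.9 and samtools 1.23.1 were used.

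Named domains were the 10 widest, the 5 with the highest H3K27ac and ATAC-seq folds, the 5 widest without H3K27ac and with H3K27me3, those nearest the width limit, and members of gene lists. The domains and lists were chosen with earlier results of these data known. The *Hnrnp*, *Dusp*, *Sox*, *Klf* and TGF-β ligand lists, the motif counts at ATAC-seq summits and other genes named as extremes were added after values were seen. Alternatives varied the width minimum, start site rule, joining of peaks, overlap, peak significance, comparison peaks and replicates. Some genes of the lists are counted but not reported by name here.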

Additional observations from a re-analysis of the deposited data

How the results depend on the processing

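Of 126 alternative values, 86 stayed the same, 38 moved and 2 reversed. Staying the same meant an unchanged sign for the tested differences and a value within 1.5 times for counts. For the other values it meant a change smaller than the spread between replicates. A value that moved could therefore keep its direction. Among the 86, the difference in the strongest ATAC-seq fold changed from -2.697 to -1.05 with a width minimum of 2000 bp and to -1.764 without replicate 2, and the differences in H3K27ac coverage and in H3K27ac near the start site were 8.878 and 10.62 percentage points against narrower peaks of at least 1000 bp. With a width minimum of 2000 bp there were 2160 domains at 2569 genes, with ATAC-seq in 99.98%, H3K27ac in 95.49% and H3K27me3 in 4.468%, 58.15% of a domain downstream and a CpG ratio difference that reversed to 0.02921. With 4000 bp there were 168 domains at 193 genes, with 3 MuSC markers, H3K27ac in 99.11%, H3K27me3 in 4.464%, 58.57% downstream and a CpG difference of -0.02128. Joining H3K4me3 peaks under 1 kb apart gave 930 genes, H3K27ac in 94.74%, H3K27me3 in 7.288%, 58.95% downstream and a CpG difference of -0.04006. With replicate 2 peaks as the domains, ATAC-seq was in 99.91%, H3K27me3 in 4.815%, 59.48% lay downstream and the CpG difference was -0.01527. One start site per gene gave H3K27me3 in 5.191%, 76.89% downstream and a CpG difference of -0.01976, and start sites within 1 kb gave 5.056% and -0.02064. Feature peaks with −log10 q of at least 5 gave H3K27ac in 94.95% and H3K27me3 in 0.6542%. Against narrower peaks of at least 1000 bp the CpG difference was -0.02712. Leaving out a replicate gave 544 to 1120 domains at 615 to 1306 genes, ATAC-seq in 99.82%, H3K27me3 in 4.963% to 5.536% and a CpG difference of -0.008232 to -0.002943. The larger numbers came without replicate 2, since replicate 1 peaks were wider. Requiring at least 0.5 of a feature peak inside the window reversed the difference in H3K27ac near the start site to -40.68 percentage points, by construction, as the widest H3K27ac peak of a domain had a median width of 2630 and 2173 bp. The cause of the other changes was not tested. No paired analysis was possible because each value compares domains with narrower peaks within 1 library, so both arms already share the library and a replicate number links no further samples.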
